A study of Mus musculus with 9 samples.

Results

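Normal adult tail skin of the mouse was compared with RNA of whole embryos, on the 3 cDNA arrays of normal skin among the 9 arrays of the series. The study asked how tail skin responds to surgical lymphedema, and the other 6 arrays hold lymphedema and surgical sham skin, which are not compared here. Each of the 3 arrays carried skin of unoperated female SKH-1 mice, a hairless and albino strain, as a pool of 3 mice taken on day 14 of the experiment from animals that were 3 wk old at its start. Skin of the distal tail was freed from the cartilage before RNA was isolated, so that epidermis, hair follicles, dermis, vessels and any adhering tissue were measured together. The second channel of every array held the same reference RNA, from whole mouse embryos at stage e17.5. A note attached to these arrays also calls the tissue diseased, which neither their titles nor their sources do.

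A late mouse embryo already has a differentiating epidermis and forming hair follicles, and it also holds every internal organ, a liver that makes blood and plasma proteins, and much tissue in division. A ratio of skin over embryo therefore ranks genes by how much larger a share of the RNA they take in skin than in the embryo as a whole. The outer layers of adult skin are built from keratins, from cross-linked proteins of the cornified envelope and from lipids, while hair is built from its own keratins and from keratin-associated proteins.

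The deposited value is a log ratio for each feature, a spotted cDNA clone. It was read as reference over skin, because the fetal liver and fetal growth genes Afp, Alb and H19 lay far above 0, and its sign was turned, so that a positive log2 ratio stands for more RNA in skin. This reading is opposite to the dyes in the labels, which put skin in Cy5, and the methods put skin in Cy3. The base of the logarithm is not stated and was read as 2, so folds rest on that reading. The reference is 1 RNA without replicates, so the test leaves out any spread of the embryo itself, and all 3 arrays have the same dye orientation, so dye bias cannot be told apart from a difference of the tissues. Zero is the median of an array, not an equal amount of RNA per cell. Lower values can come from fewer cells of a type or from less RNA per cell, and these cannot be told apart in whole tissue.

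Of 42624 features, 36161 had a value on all 3 arrays, and the log ratios correlated across features with r = 0.928, 0.921 and 0.955 between the pairs of pools 1 and 2, 1 and 3, and 2 and 3. The named features gave 9585 genes after averaging the clones of a gene. The median SD over the 3 pools was 0.17 for a gene. Limma called 2970 genes higher in skin, which is 31.0% of the genes tested, and 3452 lower, which is 36.0%, at an adjusted p under 0.05 (Benjamini-Hochberg over all genes). With so many genes called, a list is read below against these shares and by its median, beside a median over all genes of −0.04. By size, 623 genes (6.5%) were more than 2-fold higher on every array and 930 (9.7%) more than 2-fold lower. Over features, named or not, 31.0% were called higher and 34.7% lower, and 7.06% and 11.1% lay more than 2-fold higher or lower on every array. At the extremes 13 genes lay above a log2 ratio of 4 on all 3 arrays, and 54 lay below −4. On the same side of zero on all 3 arrays were 80.9% of genes. With arrays centered on the ribosomal protein genes in place of all features, which lowers every log ratio by 0.27 on average, 1901 genes were called higher and 4802 lower.

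The highest gene was Fa2h, the fatty acid 2-hydroxylase of sphingolipid synthesis, with log2 ratios of 6.57, 7.08 and 6.94 in pools 1 to 3. Its mean of 6.86 corresponds to a 116-fold excess in skin (adjusted p = 7.52e-06). Mt4, the metallothionein of stratified epithelia, followed at 6.52, 6.38 and 6.38, and the hair keratin Krt36 at 5.93, 6.38 and 5.89. Among the 20 highest genes were 8 keratin-associated proteins and the keratins Krt36, Krt24, Krt33a and Krt34. The others included Dapl1, a gene of early epithelial differentiation, Anxa8, an annexin, Akr1c18, an aldo-keto reductase of steroid metabolism, Fxyd3, a regulator of the sodium pump, and H2-Aa, an MHC class II chain. Of these Anxa8 was the most even, with 4.42, 4.44 and 4.38, and its 3 clones had means on the same side.

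At the other end stood the plasma proteins of the liver and the hemoglobin chains. Apart from Alb and Afp, which had set the direction, Ahsg, a fetal plasma glycoprotein, lay at −6.20, −7.42 and −7.70, and Fgg, the fibrinogen gamma chain, at −7.41, −6.94 and −6.38. Amy1, an amylase, was at −7.07, −6.83 and −6.56, a 113-fold deficit in skin. The lowest 20 genes also held Htra2, Tia1, Kif21b, Rwdd3, H2-DMb1 and Lmnb2, each measured by 1 clone. For these no second clone on the array could be compared.

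**Figure D1:**
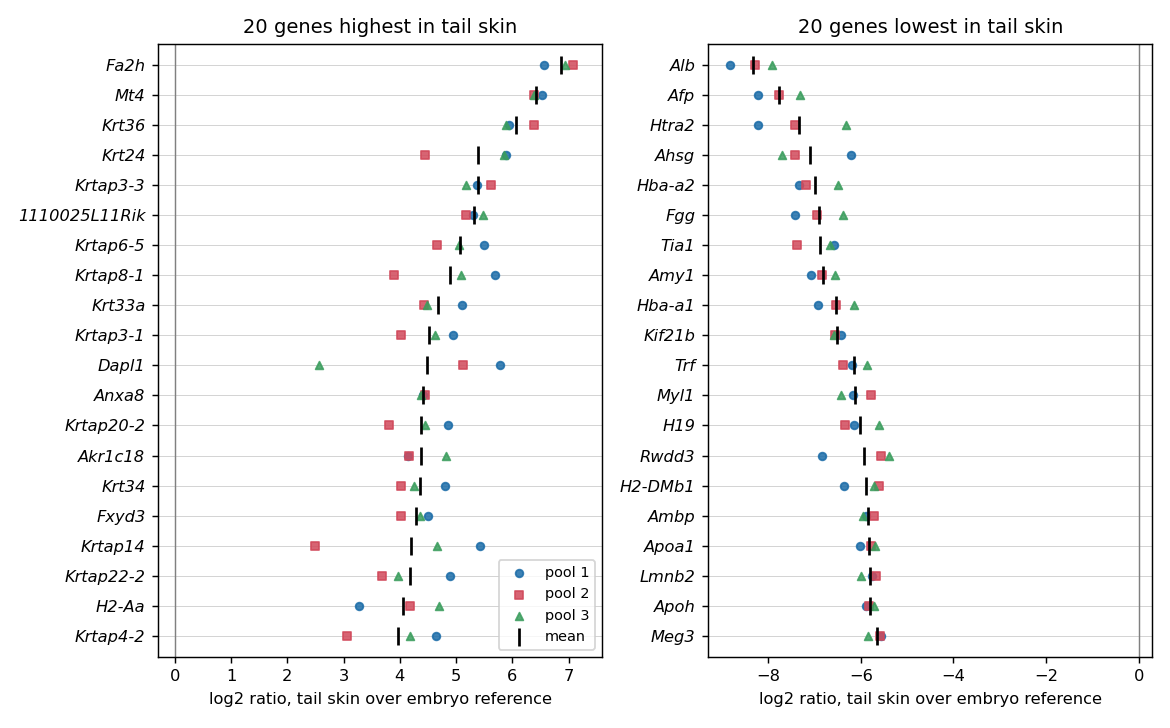
Log2 ratio of tail skin over embryo reference (horizontal axis) for the 20 highest genes (left) and the 20 lowest genes (right) that passed the test with all 3 arrays on the same side. Points are the 3 pools and black bars their mean. The lowest point on the left is 2.49 and the highest on the right −5.38, and the pools differ most for Dapl1 and Krtap14.

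The tissue label was checked on markers of cell types. Keratinocyte markers were high, with Krt5 at 3.61, 3.65 and 3.72, Krt14 at a mean of 3.71, and Krt10 at 1.88, 2.04 and 1.99, whereas Lor, loricrin, stood at 0.59, 0.04 and −0.31 and was not called. The hair follicle markers Krt71, at 3.92, 2.71 and 3.53, and Krtap13, at 2.75, 2.63 and 2.64, were high too. Melanocyte genes were mixed, with 3 of 9 higher and 2 lower, and their median of −0.05 changed side with other centerings, without pool 1 (0.19) and with the median of clones. Dct, a pigment enzyme, had a mean of 2.90 and Tyr, tyrosinase itself, 1.88 in this albino strain, whereas the endothelin receptor Ednrb was at −1.35. Markers of muscle, cartilage, neurons and liver all fell below zero, with Tnnt3 at −5.05, Col2a1 at −2.86, Stmn2 at −2.64 and Apoa1 at −5.83. In Stmn2, a neuronal microtubule gene, 1 of 4 clones was called higher, at 0.98. Most measured markers of fibroblasts, blood endothelium, smooth muscle and fat, which skin also holds, were lower too. Pdgfra was at −1.80, Pecam1 at −0.67, Adipoq at −0.90, Fabp4 at −1.55, and Acta2, with clones on both sides of zero, at −0.92. Dcn was not called. Of 19 blood endothelium genes 12 were lower and 4 higher, of 16 smooth muscle genes 12 and 2, and of 20 adipocyte genes 10 and 5. The array names no feature for Krt1, Krt25, Tyrp1, Pmel, Mbp, Cdh5, Prox1, Lyve1, Myh11, Ckm, Cd207, Cd3e, Thy1, Hbb-b1 or Acan in the annotation used here, so these markers were not checked.

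Hair genes formed the highest group. All 14 keratin-associated proteins, the small sulfur-rich or glycine-rich proteins that embed hair keratin filaments, were called higher, with a median log2 ratio of 4.07, and all 14 were more than 2-fold higher on every array. Their means ran from 1.64 for Krtap6-2 to 5.39 for Krtap3-3. All 9 measured genes of the hair and nail keratin list were higher as well, with a median of 3.39, among them the cortex keratins Krt33a at 4.67 and Krt34 at 4.36, the inner root sheath keratins Krt27 at 3.49 and Krt71 at 3.39, and Tchh, trichohyalin, at 3.12. Members of this family resemble each other in sequence, so a clone can also bind RNA of its neighbors. Sequence of the clones was not used here.

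The pools differed in these genes in a shared way. Pool 2 was the lowest of the 3 for 11 of 14 keratin-associated proteins and for 8 of 9 hair keratin genes, whereas over all genes pool 2 was lowest for 30.1%. The median over the keratin-associated proteins was 4.75, 3.08 and 4.12 in pools 1, 2 and 3. Krtap14 showed the widest gap, with 5.42, 2.49 and 4.65, and Krtap8-1 had 5.70, 3.90 and 5.09. Krtap3-3, at 5.38, 5.62 and 5.18, Krtap1-4, at 2.07, 2.19 and 2.64, Krtap6-2 and Krtap13 did not share the gap. Pool 2 still lay above zero for every one of these genes. What sets the pools apart was not tested.

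The promoters of these genes are shown because they share letters that few other promoters have. RefSeq (build GRCm38.p6) gave a promoter for all 14 keratin-associated proteins, and the motif TATAAA occurred on the gene's own strand within the last 100 bases before the start in 12 of 14, against 3.80% of all 32851 promoters. Its first base lay between 27 and 61 bases before the start. The motif GGGCGG, searched on both strands of the 250 bases before the start, was in none of the 14, in 32.7% of all promoters and in 54.1% of those of the genes tested. These motifs cannot overlap, and a match is a description of the letters, not evidence of binding. The last 120 bases before the start follow, 5′ to 3′ on the gene's strand, with TATAAA in capitals, for Krtap6-5 (chr16:89047900-89048019, minus strand), Krtap8-1 (chr16:89487953-89488072, minus strand), Krtap3-1 (chr11:99566631-99566750, minus strand) and Krtap20-2 (chr16:89205741-89205860, plus strand). Then follow Krtap3-3 (chr11:99550864-99550983, minus strand) and Krtap14 (chr16:88826146-88826265, minus strand), the members without this exact motif. Both hold the similar letters tatataa in the printed stretch.
Krtap6-5: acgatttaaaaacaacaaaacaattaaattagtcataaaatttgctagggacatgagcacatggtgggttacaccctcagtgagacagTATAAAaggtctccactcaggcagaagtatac
Krtap8-1: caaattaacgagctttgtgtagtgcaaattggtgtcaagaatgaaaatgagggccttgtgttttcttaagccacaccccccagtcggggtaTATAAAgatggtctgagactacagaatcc
Krtap3-1: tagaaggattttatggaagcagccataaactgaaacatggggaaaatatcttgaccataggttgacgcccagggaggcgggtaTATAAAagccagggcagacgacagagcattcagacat
Krtap20-2: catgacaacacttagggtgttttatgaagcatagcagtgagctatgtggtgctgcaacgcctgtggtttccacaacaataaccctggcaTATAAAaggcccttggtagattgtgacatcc
Krtap3-3: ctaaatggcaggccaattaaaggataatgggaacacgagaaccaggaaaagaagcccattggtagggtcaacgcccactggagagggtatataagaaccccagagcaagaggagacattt
Krtap14: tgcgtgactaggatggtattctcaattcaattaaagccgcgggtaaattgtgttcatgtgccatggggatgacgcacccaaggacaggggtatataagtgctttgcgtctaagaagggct

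The epidermis itself was high, but not throughout. Of 9 epidermal keratins 7 were called higher and 1 lower, with a median of 1.97. The basal pair Krt5 and Krt14 and the suprabasal Krt10 were among the higher ones, and Krt24 reached 5.89, 4.45 and 5.85. Krt16, the keratin of activated epidermis, was instead lower, with −0.70, −0.27 and −1.07 (adjusted p = 0.0131), and without pool 3 its mean was −0.49 and no longer called. Krt13, a keratin of internal stratified epithelia, gave 0.90, 0.31 and −0.64 and was not called, whereas without pool 3 it was called higher at 0.61. Among 25 genes of the cornified envelope, the protein shell of dead surface cells, 20 were higher, 2 lower, and the median was 1.77. Transglutaminases that cross-link the shell were high, Tgm3 at 3.26 and Tgm5 at 2.25, and so were the late envelope gene Lce1l at 3.06, Sbsn, suprabasin, at 2.90, and Rptn, repetin, at 2.67. Below zero lay Ivl, involucrin, at −0.87, −0.96 and −1.63, and Casp14, the caspase of cornification, at −0.35, −1.09 and −0.40. Without pool 2 Casp14 had a mean of −0.38 and was not called. Within the small proline-rich and late cornified envelope family 11 of 13 genes were higher, up to 3.42 for the pseudogene Sprr2j-ps, and the other two, Lce1b at 0.00 and Lce1m at 0.32, were not called, although without pool 3 Lce1m was called at 0.46. For 20 of the 25 envelope genes pool 1 was the highest. It was also highest for 34 of 64 cytosolic and 41 of 70 mitochondrial ribosomal protein genes, but for 5 of 20 genes of the MHC list. The share over all genes was not counted.

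**Figure D2:**
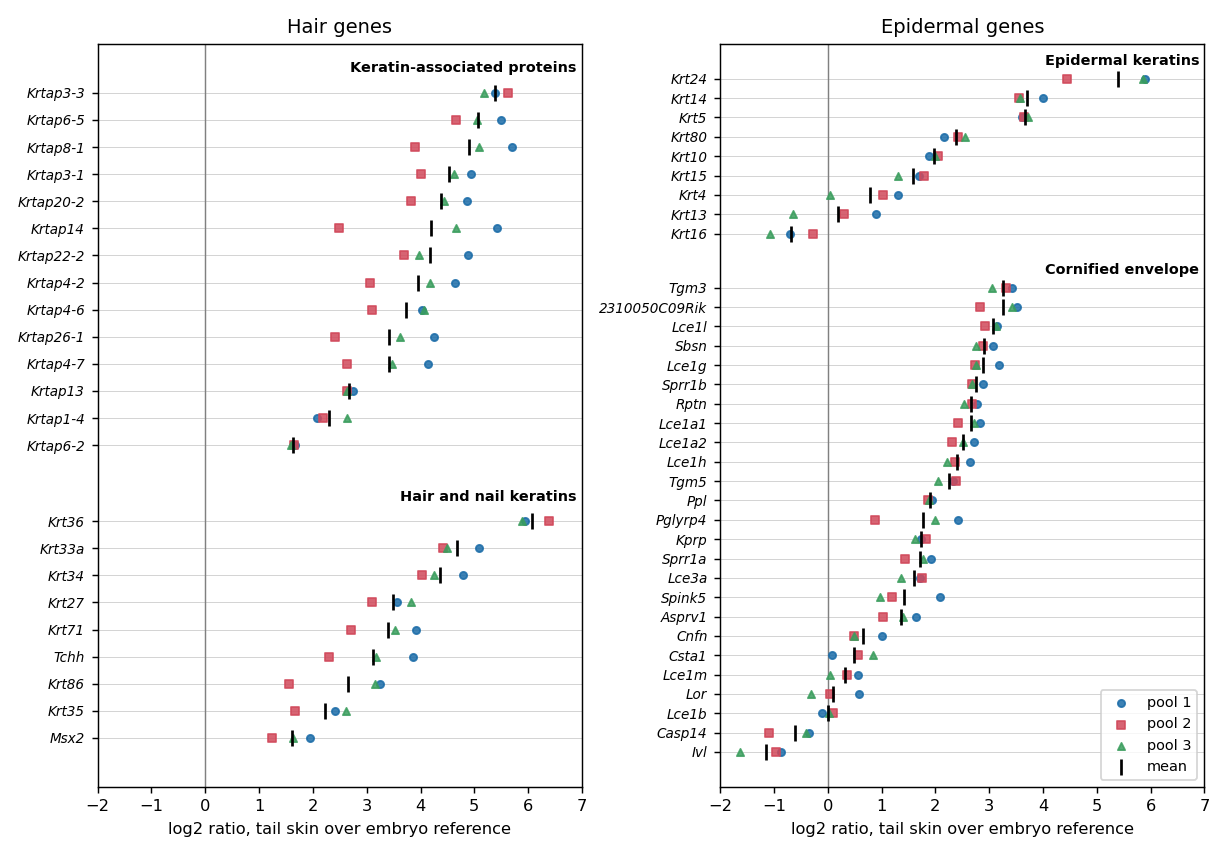
Log2 ratio of tail skin over embryo reference (horizontal axis) for hair genes (left) and epidermal genes (right), each gene on a line, with the 3 pools as points and their mean as a bar. Hair genes all lie above zero with pool 2 lowest for most, while Krt16, Casp14 and Ivl lie below zero among the epidermal genes.

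Genes that hold keratinocytes together followed the keratins. Of 21 genes of desmosomes and epithelial adhesion 16 were higher and 3 lower. The plaque proteins Dsp, desmoplakin, and Jup, plakoglobin, had means of 2.88 and 2.77, Perp, a desmosomal membrane protein, 2.56, Gjb6, a connexin, 2.55, and Itgb4, the integrin of hemidesmosomes, 2.46. The laminin chain Lama3 was lower, with −1.49, −1.31 and −2.05, although it too belongs to the epidermal anchor. Transcription factors of the epidermis were higher in 11 of 13 cases and lower in none, with a median of 1.42. The highest were Pou2f3 at 1.99, 2.96 and 2.70, Grhl1 at 2.49, 2.54 and 2.39, and Ovol1 at 2.75, 1.84 and 1.44, and Klf4, which controls barrier formation, had a mean of 1.97.

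Lipid and protease genes of the barrier were higher too. Elovl4, which makes the very long fatty acids of skin ceramides, had log2 ratios of 3.52, 3.60 and 3.17, and Cers4, a ceramide synthase, 3.52, 3.35 and 2.77. In the lipid barrier list 16 of 19 genes were higher, and Asah1, an acid ceramidase, was the 1 lower gene at −0.64, a mean of 2 clones at −1.97 and 0.68. Of 21 skin proteases and inhibitors 14 were higher and 4 lower. The desquamation kallikrein Klk7 had a mean of 2.95 and the inhibitor Serpinb5 2.45. Wfdc18, a WAP domain protein, reached 3.67, whereas Wfdc2 of the same family lay at −1.36, −2.41 and −2.72. Cholesterol synthesis genes were higher in 9 of 13 cases and lower in none, led by Msmo1 at 1.58 and Dhcr7 at 1.53, and the median of 0.69 did not differ much between pools, at 0.64, 0.61 and 0.60.

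Immune genes were split by type. The MHC class II chains stood far above the embryo, H2-Aa at 3.28, 4.18 and 4.69, H2-Ab1 at 2.87, 2.62 and 2.92, the invariant chain Cd74 at 2.50, 2.18 and 3.19, and H2-Eb1 at 2.55, 2.13 and 2.66, which are genes of Langerhans cells, other dendritic cells and B cells. In the list of MHC genes and the machinery that loads them 14 of 20 were higher and 2 lower. The loading gene H2-DMb1, measured by 1 clone, was at −6.37, −5.60 and −5.71, while its partner H2-DMa was at 1.27 and the paralog H2-DMb2 at 1.72. Of 7 B cell genes 5 were higher, with Jchain and Blnk both at 1.87 and Ms4a1, which encodes CD20, at 1.69, and Ebf1 was lower at −1.44.

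Macrophage genes did not share that height. Of 19 measured 9 were lower and 3 higher, with a median of −0.30. Adgre1, the F4/80 antigen, was at −2.32, −2.96 and −2.69 and Cd68 at −1.43, −1.08 and −1.37, while Lgals3, galectin-3, which keratinocytes also make, was at 3.60, 3.39 and 3.38. Csf1r, the other macrophage marker set beforehand with Cd68, had a mean of 0.27 and was not called. The list of antimicrobial and calgranulin genes was split, with 11 of 24 higher and 8 lower and a median of 0.08, which becomes −0.18 if arrays are centered on ribosomal protein genes. On the low side stood neutrophil granule genes and calgranulins, with S100a9 at −2.33, −2.09 and −1.70, S100a8 at −1.03, −0.93 and −0.58, Ltf, lactoferrin, at −2.58 and Pglyrp1 at −3.04, while Camp and Ctsg were higher at 0.48 and 0.75, and so were Ly6d and several S100 genes given further on. Mast cell genes were lower in 5 of 8 cases, with Cpa3, the mast cell carboxypeptidase, at −2.90, and 1 was higher, the connective tissue mast cell protease Mcpt4, at 0.64. Chemokines, cytokines and their receptors were higher in 29 of 48 cases.

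Genes of daily rhythm and of acute response were above the embryo. Of 11 clock genes 9 were called higher and none lower, and the median was 0.69. Per3, a period gene, had 2.35, 2.63 and 2.48, Rora, a nuclear receptor of the clock loop, 2.24, 2.20 and 2.08, and Ciart 1.21, 1.90 and 2.08. Cry2 was at −0.35, −0.25 and −0.06 and was not called. The hour at which the skin or the embryos were taken is not given in the sources used here. In the list of immediate early and stress genes 24 of 36 were higher and 4 lower, with Hspa1a, a heat shock protein, at 2.00 and Ier3 at 1.93.

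Liver and blood genes were far below zero. Of 39 genes of liver secretion, not counting Alb and Afp, 30 were lower and 6 higher, with a median of −2.69, including Trf, transferrin, at −6.15, Ambp at −5.85 and Apoh at −5.81. A few members of that list stood above zero. Ass1, of the urea cycle, had a mean of 1.87, and Apoa5, measured by 1 clone, gave 2.50, 1.42 and 1.71. Of 30 erythroid genes 29 were lower and none higher, with a median of −1.46. The alpha chains Hba-a2, at −7.33, −7.18 and −6.49, and Hba-a1, at −6.92, −6.53 and −6.15, were followed by the red cell anion exchanger Slc4a1 at −5.05, the embryonic chains Hba-x at −4.17, Hbb-bh1 at −3.80 and Hbb-y at −3.40, and the heme synthesis enzyme Alas2 at −2.42, where 1 of 4 clones was called higher. The alpha chains are near-identical copies, and a clone cannot tell them apart. Of 39 genes of gut and pancreas 28 were lower, among them Pnliprp1, a pancreatic lipase relative, at −4.63, −6.11 and −6.00 and Try4, a trypsin, at −4.98, −4.92 and −4.98.

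Muscle and skeleton genes were low too. Of 34 skeletal muscle genes 30 were lower, with a median of −2.64. Myl1, a fast myosin light chain, was at −6.18, −5.77 and −6.43, Tnnc2, the fast troponin C, at −5.64, and Myh8 and Myh3, the perinatal and embryonic myosin heavy chains, at −5.23 and −4.42. Pvalb, the calcium buffer of fast fibers, was the 1 member called higher, at 2.08, 0.88 and 1.03. Heart genes were lower in 12 of 17 cases. Of 13 cartilage genes 12 were lower, with Cnmd, chondromodulin, at −4.56 and Col9a3 at −3.69, and Fgfr3 was higher at 0.82. Of 10 bone genes 8 were lower, and Bglap, osteocalcin, measured by 1 clone, was higher at 2.20, 1.86 and 1.85.

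Collagens were also below the embryo. In the whole collagen family, which includes those of cartilage and basement membrane, 23 of 28 genes were lower. None was higher, and the median was −1.69. Col3a1 had −3.19, −3.02 and −2.82, and Col1a1 −1.80, −2.45 and −2.69. Of 57 genes of dermal fibroblasts and matrix 39 were lower and 5 higher. Fbn2, the fibrillin of developing tissue, led at −4.27, −4.35 and −4.43, followed by Aspn at −3.70 and Col6a3 at −3.55. The small proteoglycan Dcn, decorin, with 6 clones, was near zero at −0.04, 0.32 and 0.05. Pi16, a marker of adventitial fibroblasts, was higher at 2.21, 2.65 and 2.60, and Fbln1, fibulin-1, was called higher at 1.51, 1.58 and 1.65, but its 2 clones were called on opposite sides, at −1.22 and 4.38. Basement membrane genes were lower in 10 of 17 cases and higher in none, with Nid2 and Nid1, the nidogens, at −2.87 and −2.32.

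Imprinted and fetal growth genes formed a further low group. Of 19 imprinted genes, not counting H19, which had set the direction, 15 were lower, with a median of −2.44. Meg3 was at −5.56, −5.58 and −5.84, the growth factor Igf2 at −5.97, −5.32 and −5.54, and Peg3 at −5.90, −5.34 and −5.40. Plagl1 and Grb10 had means of −4.74 and −4.49. The 3 members called higher were Igf2r, the receptor that clears Igf2, at 1.54, 1.37 and 2.20, its antisense transcript Airn at 1.41, 1.17 and 0.97, and Ppp1r9a at 0.50. Strand was not separated on these arrays, so a clone of Airn that overlaps Igf2r cannot tell the transcripts apart. Of 26 genes of fetal growth 20 were lower, with the glypican Gpc3 at −3.14, the growth factors Mdk at −2.70 and Ptn at −2.48, and Crabp2, a retinoic acid binding protein, higher at 2.28, 2.00 and 2.01.

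Genes of the nervous system were lower in 41 of 59 cases. Map1b, a microtubule protein of growing axons, was at −4.22, −3.94 and −3.48, Gap43 at −3.20, −3.89 and −4.23, and Nsg2 at a mean of −3.75. Called higher were 6 members, and the highest of them was the homeobox gene Dlx5 at 1.19, 1.15 and 1.44. The signaling list of Wnt, BMP, Notch and hedgehog was mixed, with 15 of 46 higher and 19 lower. On the high side stood Notch1 at 1.77, 2.01 and 1.95 and its ligands Jag1 at 1.71 and Jag2 at 1.69, and on the low side the Wnt modulator Sfrp2 at −2.53 and the hedgehog receptor Ptch1 at −2.50, −2.29 and −2.45.

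Genes of cell division were lower in 47 of 58 cases and higher in 1, Mybl2, at 0.78, 0.50 and 0.07, which was not called without pool 1 (0.29) or pool 2 (0.43). The median was −0.87. The kinetochore gene Knl1 had −2.12, −2.29 and −2.36, Spc25 −2.24, −2.04 and −2.21, and the S phase cyclin Ccna2 −1.55. Mki67, measured by 1 clone, was at −1.85, −1.13 and −1.44. DNA replication genes were lower in 27 of 51 cases, with Rrm1, of nucleotide reduction, at −1.42 and Mcm3, of the replicative helicase, at −1.33, while Pola1, of the primase polymerase, was called higher at 1.13 from clones at −0.88 and 3.13. Promoters of the division genes were nearer to those of all genes tested than to those of the keratin-associated proteins. For 49 of 58 division genes there were 51 promoters. GGGCGG was found in 34 of them and TATAAA in 1, on both strands of the 250 bases before the start. The shares were 32.7% and 12.4% over all promoters, and 54.1% and 7.94% over those of the genes tested. In the same search the 14 promoters of keratin-associated proteins held GGGCGG in none and TATAAA in 12. The examples were picked from the lowest division genes upward, and genes without GGGCGG in the last 120 bases before the start were skipped. These bases follow, with GGGCGG in capitals, for Mki67 (chr7:135716380-135716499, minus strand), the proliferation antigen Ki-67, and for Knl1 (chr2:119046999-119047118, plus strand).
Mki67: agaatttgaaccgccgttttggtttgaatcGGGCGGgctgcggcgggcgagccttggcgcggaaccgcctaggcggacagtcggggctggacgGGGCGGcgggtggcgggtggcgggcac
Knl1: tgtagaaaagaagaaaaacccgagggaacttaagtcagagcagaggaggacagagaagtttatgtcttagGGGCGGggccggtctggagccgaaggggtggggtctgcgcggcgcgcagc

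Over all tested genes that have a promoter in the table, TATAAA was in 12.8% of promoters of genes more than 2-fold higher on every array, in 10.7% of those more than 2-fold lower and in 7.30% of the rest. The higher set includes all 14 keratin-associated proteins, which gave 12 of its 76 promoters with TATAAA, and the share without them was not counted. TATAAA was in 8 of 21 promoters of cornified envelope genes, 10 of 36 of liver genes and 13 of 36 of gut and pancreas genes, so that it was not confined to genes above zero.

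Housekeeping groups did not sit at the same level. Of 77 genes of the mitochondrial respiratory chain 64 were lower and 2 higher, with a median of −0.69, and the lowest, Cox6a2, at −2.88, is a muscle form. Cycs, cytochrome c, with 6 clones, was at −1.97, −1.91 and −1.97. Splicing factors were lower in 36 of 50 cases. Cytosolic ribosomal protein genes were higher in 31 of 64 cases and lower in 5, with a median of 0.25, which becomes −0.02 if arrays are centered on these genes. The median of the proteasome genes, 0.03, becomes −0.24 under that centering. The commonly used control genes were not level either, with Gapdh at −0.62, −0.40 and −0.63 from 3 clones between −1.65 and 0.76, Actb, by 13 clones, at −0.80, −0.87 and −1.03, and Tuba1b at −2.14, −2.18 and −2.16.

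**Figure D3:**
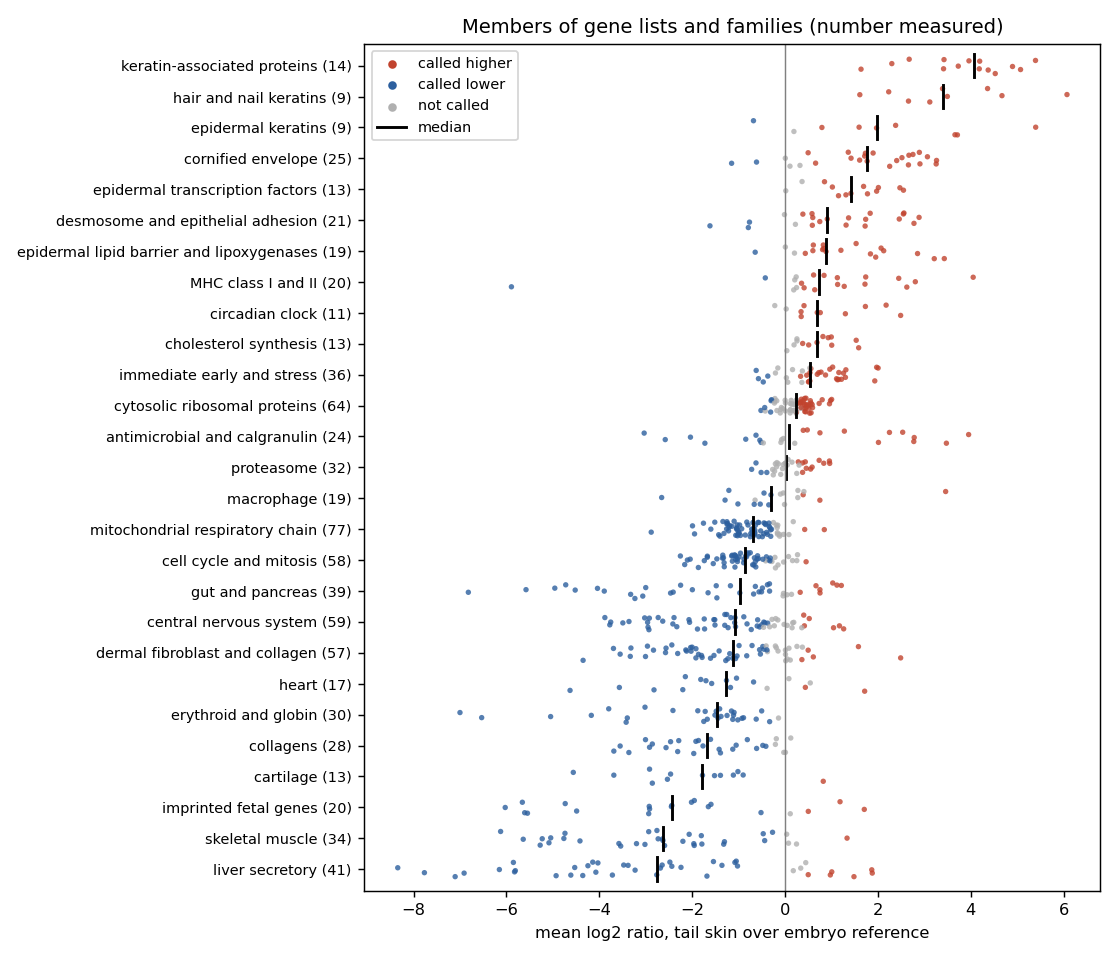
Mean log2 ratio of tail skin over embryo reference (horizontal axis) of each measured member of 27 gene lists and families, ordered by median, with the number measured in brackets. Red points were called higher, blue points lower and grey points neither, and black bars are medians. The liver and imprinted lists include Alb, Afp and H19, whose side was set by the reading of the ratio. Hair and epidermal lists lie to the right, liver, muscle and imprinted genes to the left, and ribosomal and proteasome genes near zero.

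Genes of position along the body were few on the array. Hoxd11, a gene of posterior identity, had a mean of 1.81, and Hoxa5, Hoxb1 and Hoxc9 had means of 0.49, 0.48 and 0.36 and were also called higher. The transcript Hoxb5os, opposite to Hoxb5, was called higher at 0.94, 0.20 and 0.70, but not without pool 3 (0.57), and strand was not separated on these arrays. The calls of Hoxb1 and Hoxc9 were lost when a pool was left out, Hoxb1 at 0.27 without pool 1 and 0.56 without pool 3, and Hoxc9 at 0.29 without pool 1 and 0.28 without pool 2. With arrays centered on ribosomal protein genes Hoxa5 (0.22), Hoxb1 (0.21), Hoxc9 (0.09) and Hoxb5os (0.35) were not called. Hoxa5 (0.093) and Hoxc9 (0.36) were not called with the first clone. Hoxb3 was lower at a mean of −0.66, with no call without pool 3 (−0.61), and the cofactor Meis2 at −2.34, −1.92 and −2.21. Among genes of the sex chromosomes Xist was at −0.27, 0.08 and −0.10, with female skin against embryos whose sex is not given.

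Some families held members on both sides of zero. In the aquaporins Aqp3, the glycerol channel of epidermis, was at 3.85, 3.33 and 3.61 and Aqp8, of internal organs, at −3.40, −3.29 and −3.96. In the apolipoproteins Apoe, with 5 clones, was at 1.03, 1.16 and 1.10, whereas Apoa1, Apoh, Apom, Apoa4 and Apoc3 had means between −5.83 and −2.65. The apolipoproteins did not divide cleanly between skin and liver genes, since the highest member was Apoa5 of the liver list, at a mean of 1.88. The S100 family held S100a3, a hair protein, at 4.17, 2.74 and 3.52, S100a14 at 2.53 and S100a6 at 2.25 beside the low calgranulins. The Ly6 gene Ly6d, of stratified epithelium, reached 4.24, 3.78 and 3.83, in a family with 6 of 7 members called higher and 1 lower.

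Some genes were uneven between pools. Cpa1, a pancreatic carboxypeptidase, had the largest SD of all genes tested, 2.53, from values of −5.14, −0.21 and −3.66. It was called lower with all pools, but not without pool 1 (−1.93) or without pool 3 (−2.68). Its value in pool 2 was not shared by Try4 or Pnliprp1, which are given above. Dapl1 had 5.77, 5.11 and 2.57, so that pool 3 was the low sample, and Gng3, a G protein subunit of neurons, had −1.11, −3.38 and −4.37, with pool 1 apart. Pool 1 also had the most missing values, at 12.6% of features, against 4.73% and 1.34% in pools 2 and 3. The median SD over pools was 0.17 for genes with a mean under 1 in size and 0.39 for those over 4.

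Clones of the same gene were compared as a further measure of error. Of the tested genes 4674 had 2 or more clones on all 3 arrays. In 56.5% of them all clones lay on the same side of zero, a share that was 33.7% where the mean of the gene was under 0.5 in size and 98.7%, or 75 of 76 genes, where it was 3 or more. That mean was taken over the same clones, and clones on opposite sides pull it toward zero. Part of this rise is therefore built in, and how much was not tested. The median SD over clones was 0.40, against 0.22 over pools for these genes, so that the choice of clone moved a value by more than the choice of pool. The correlation of the first with the second clone in the order of the table was r = 0.585 across genes, which are not independent replicates. In 701 of the 4674 genes clones were called on opposite sides. Genes with 1 clone, 4911 in number and including most of the hair genes, cannot be judged this way.

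Among the 20 highest genes 18 had 1 clone, and the other two, Krt36 and Anxa8, had all their clones called higher. Among the 20 lowest, not counting the genes that set the direction, 11 of 17 had 1 clone, and in the remaining 6 every clone was called lower. Both sets were ranked by the mean of the clones, which favors genes whose clones lie on the same side. The 18 clones of Hba-a1 lay between −7.43 and −2.15, and the clones of Krt36 had means of 6.02 and 6.12. In other genes 1 clone stood apart. Far2, a fatty acyl reductase, had clones at −1.38, 4.88 and 5.05. Tubb3, the neuronal tubulin, had clones at −0.25, −7.75 and −0.88, so that its mean of −2.96 rests on 1 of 3. Tcf4, a transcription factor, had 3 clones between −1.46 and −1.11 and another at 4.87, and Glud1, a mitochondrial dehydrogenase, had 1 of 5 clones at 4.90 with the rest between −1.29 and 0.24. Whether such clones carry another gene's sequence was not tested.

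**Figure D4:**
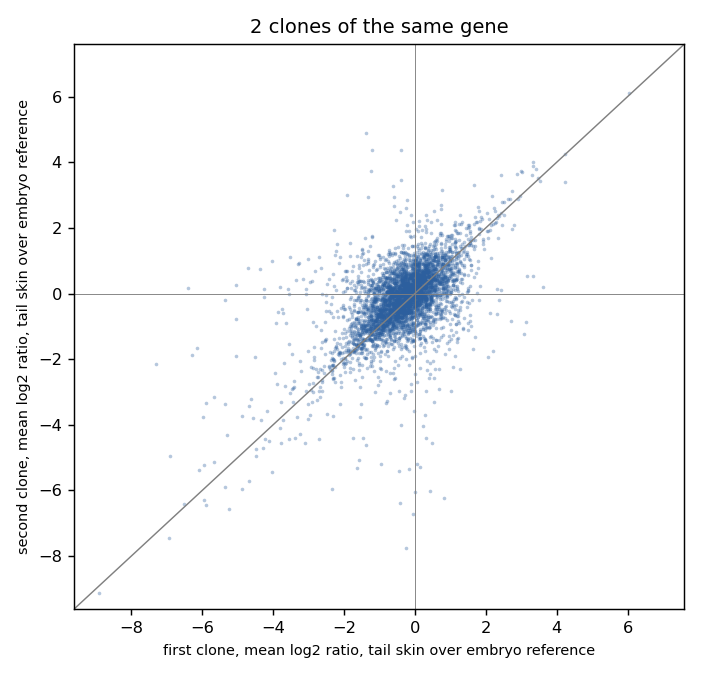
Mean log2 ratio of the second clone (vertical axis) against the first clone (horizontal axis) of 4674 genes with 2 or more clones, in the order of the table, both tail skin over embryo reference, with the line of equality in grey. Points gather along the line at both ends (r = 0.585 over all genes), while some genes have a clone near zero and another beyond −4 or 4.

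Values that the 3-array rule left out also included genes of embryonic organs. A further 793 genes had features with a value on 2 of the 3 arrays only, and the lowest of these were the apolipoprotein Apoa2 at −6.60 and the heme carrier Hpx, hemopexin, at −4.28. The median of these 793 genes was nonetheless above zero, at 0.39, and the highest was Kdm2b at 2.50. Among the 50 highest features on all 3 arrays 30 had either no gene name or several in the annotation used, and among the 50 lowest 34. The named genes thus cover a minority of both ends.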

How the data were processed

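Total RNA, 15 micrograms per pool, of normal tail skin and whole-embryo reference RNA were hybridized together to cDNA arrays, which the authors scanned and read with GenePix, followed by background subtraction and dye normalization. The deposited values are log2 ratios, 1 per feature and array, read as log2 since no base is stated, and signal intensities were not used here. The table holds 26 null values, and its empty cells were kept as missing. It was not limited to the features that the study kept for reference signal, so dim features remain.

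The sign was turned, and each array was centered on its median. Samples were grouped by their titles, and no p-value compares states. Those features measured on each of the 3 arrays were fitted in limma 3.58.1 (R 4.3.3) with an intercept only (lmFit, eBayes) and tested two-sided against 0, with Benjamini-Hochberg adjustment over all 36161 features or all 9585 genes at 0.05. A gene is the mean of its clones. The annotation, an old platform table, names 20678 features by 1 gene, 953 by several and 20993 not at all, and only the first kind was used, with 18119 of them tested. The pools were the replicates, so n = 3, and their number limits the precision. The fit was tested on simulated data. Figures were drawn with matplotlib in Python. Motifs were counted in RefSeq promoters, 250 bases before the start.

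The arrays, the 58 gene lists and the 36 families were chosen with earlier results of these data known. Named genes are the 20 highest and the 20 lowest that passed with all arrays on the same side, up to 4 of the highest and 4 of the lowest members of each list and family, the cell type markers, all Hox genes, the direction genes Afp, Alb and H19, the 10 genes of widest clone range and the 5 with most clones. Outside this rule Apoc3, Camp, Ccna2, Cpa1, Ctsg, Gapdh, Gng3, Grb10, H2-DMa, Hbb-bh1, Hbb-y, Itgb4, Mki67, Plagl1, Rptn and Tgm5 were chosen after their values were seen. Alternatives were other centerings and scalings, a filter of 2 of 3 arrays, each array left out, the median or the first of the clones, a spread shared with all 9 arrays, limma's treat and other thresholds.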

Additional observations from a re-analysis of the deposited data

How the results depend on the processing

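The settings moved how many genes were called more than which side they were on. Genes called higher and lower numbered 2970 and 3452, and leaving out each pool in turn gave 2462 to 2818 higher and 2863 to 3446 lower. For features the counts were 11214 and 12551, and 9299 to 10933 higher and 10523 to 12722 lower with a pool left out. Centering on ribosomal protein genes gave 1901 genes and 7405 features higher. Limma's treat against a 2-fold change gave 393 genes higher and 633 lower, and 1574 and 2837 features. The rule that all 3 arrays lie beyond 2-fold, which is no test, gave 623 and 930 genes, and 2552 and 4009 features. No gene was called on the other side under any centering, scaling or left-out pool, and 7 genes were with the median of clones and 81 with the first clone. Among genes named here Far2 (−1.38), Fbln1 (−1.22) and Tcf4 (−1.46) turned negative with the first clone, and Glud1 (−0.47) and Tcf4 (−1.22) with the median of clones. When arrays were centered on ribosomal protein genes, their own median turned from 0.25 to −0.023, that of antimicrobial and calgranulin genes to −0.184 and that of proteasome genes to −0.242. The melanocyte median turned positive with no centering (0.0467), with the mean (0.0265) and with the median of clones (0.082), and leaving out a pool gave −0.0485 to 0.185, the highest without pool 1. The share of features on the same side was 79.5%, and 84.7% to 88.5% over 2 pools, and the share of genes with all clones on the same side was 56.5%, and 55.5% to 57.4% with a pool left out. Lists with a median above 0 numbered 22 of 58, with 21 to 22 when a pool was left out, and families 18 of 36, with 16 to 18. The clone settings leave feature counts as they are. The cause of these moves was not tested. No paired analysis was possible because the 3 arrays form 1 group and no groups were compared. With 3 pools, 1 reference RNA and intensities not used here, features near background cannot be recognised, and low ratios of dim features cannot be weighed by signal.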
